A study of Mus musculus with 48 samples.

Results

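The calcium-binding and calmodulin-binding protein genes Calb1, Calb2, Pvalb, Hpca and Nrgn were followed in mouse amygdala and hippocampus. Every probe set whose symbol in the platform annotation was one of these 5 genes was taken, which gave 6 of the 12422 probe sets that are not array controls, and 5 of the 8251 genes that single-gene probe sets name. Calb1, Calb2, Hpca and Nrgn had 1 probe set each and Pvalb had 2. The study hybridised biotin-labelled cRNA from total RNA to 48 one-colour Affymetrix arrays, and its title sets associative against nonassociative learning. Amygdala gave 6 FC, 6 CS and 10 NH arrays, and hippocampus gave 8 FC, 8 CS and 10 NH arrays. The arms are coded in the labels and are read here as fear conditioning (FC), the conditioned stimulus alone (CS) and naive mice from the home cage (NH), a reading that no label spells out. Strain, sex, age and the time between session and dissection are not given in the labels. Nor do the labels say that arrays of an arm came from separate mice, so p-values measure the spread between arrays, which may be technical in part. The title of each amygdala array can be read as its batch and a pair of numbers, so that an array may hold pooled tissue, and the labels leave this unsaid. Read this way, both numbers of 8 of the 22 amygdala arrays, and 1 number of 1 more, also title hippocampus arrays of the same arm. The tissues may therefore share mice, and every SE and p-value of a tissue difference treats their arrays as independent.

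Neurons hold free calcium low and let it enter during activity. Calbindin (Calb1), calretinin (Calb2) and parvalbumin (Pvalb) are cytosolic EF-hand proteins that buffer that calcium, and antibodies to them are widely used to tell classes of inhibitory interneuron apart. Calb1 is also made by granule cells of the dentate gyrus and Calb2 by hilar mossy cells in mouse hippocampus. Hippocalcin (Hpca) is a neuronal calcium sensor whose lipid tail is exposed when calcium binds, which moves the protein to membranes, and it is known for its abundance in hippocampal pyramidal neurons. Neurogranin (Nrgn) has no EF hand. It binds calmodulin through an IQ motif in dendrites of forebrain principal neurons and releases it when calcium rises.

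The genes lie on 4 chromosomes of assembly GRCm38.p6, by the RefSeq gene table. Calb1 spans chr4:15881264-15906709 and Hpca spans chr4:129111570-129125919. Calb2 spans chr8:110142526-110168212, Pvalb spans chr15:78191112-78206400 and Nrgn spans chr9:37544493-37552745. The position of each probe set within its gene was not used here. Hpca and Nrgn are the members with a single probe set that lay higher in hippocampus, so the 250 bases before a RefSeq start of each are shown, 5′ to 3′ in the direction of the gene. Both windows are on the minus strand, at chr4:129121748-129121997 for the first of 3 Hpca windows and chr9:37552746-37552995 for Nrgn. Capitals mark the only match to 3 searched motifs.
Hpca: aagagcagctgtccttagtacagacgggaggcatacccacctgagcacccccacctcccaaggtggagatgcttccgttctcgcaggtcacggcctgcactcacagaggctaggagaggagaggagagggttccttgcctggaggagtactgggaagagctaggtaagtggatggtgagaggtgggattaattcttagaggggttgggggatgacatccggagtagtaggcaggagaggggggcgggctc
Nrgn: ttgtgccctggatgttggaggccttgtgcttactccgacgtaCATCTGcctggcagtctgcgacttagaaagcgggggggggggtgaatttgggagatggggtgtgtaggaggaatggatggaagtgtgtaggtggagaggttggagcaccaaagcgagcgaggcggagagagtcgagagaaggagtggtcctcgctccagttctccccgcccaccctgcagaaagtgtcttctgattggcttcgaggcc
The motifs, searched on both strands, were the cAMP response element TGACGTCA, the AP-1 site TGANTCA and CAGATG, an E-box of the kind that NeuroD factors bind, and none of the 3 contains another. Of 32851 RefSeq promoter windows of 250 bases, 1.55% held the cAMP response element, 6.75% the AP-1 site and 14.4% the E-box. The Nrgn window held 1 E-box, on the opposite strand to the one printed, and no other motif. None of the 3 Hpca and 2 Pvalb windows held any of them. Each match is a match of letters only.

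The NH arm was checked against the other arms with Fos, a gene transcribed within minutes of neuronal activity. Fos was higher in every FC and CS array than in any NH array of the tissue. In amygdala Fos reached 6.65 to 7.04 log2 units in FC arrays and 6.11 to 7.05 in CS arrays, against 4.64 to 5.58 in NH arrays. In hippocampus it reached 6.66 to 6.91 in FC and 6.54 to 7.03 in CS, against 4.85 to 6.12 in NH. The FC range lay within the CS range in both tissues, so Fos does not check the reading of FC against CS. Arrays of a tissue correlated at r from 0.982 to 0.999 over all probe sets. Medians of array intensity lay between 52.3 and 56.1 in amygdala and between 76.5 and 80.8 in hippocampus, which points to a normalization run apart for each tissue. Levels were therefore compared between tissues by the percentile of a probe set within its own array, from 0 for the dimmest to 100 for the brightest. Batches 1 to 3 held only amygdala and batches 4 to 7 only hippocampus, so tissue, batch and normalization cannot be told apart in any tissue difference below.

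Among the buffers, both calbindin and calretinin lay higher in amygdala. In NH arrays Calb1 lay at percentile 91.7, 94.4 and 95.8 (lowest, median and highest of 10) in amygdala, against 86.3, 87.5 and 88.6 in hippocampus. No amygdala array reached down to a hippocampus array. The means were 94.2 ± 1.09 in amygdala and 87.4 ± 0.842 in hippocampus (SD, n = 10 each), a difference of 6.79 ± 0.451 percentile points (SE; limma, adjusted p = 1.66e-10). In total 5 of the 6 member probe sets passed this test in NH arrays, where 42.4% of all probe sets passed. With a share this large, a pass alone sets no member apart from the array. In the other arms the Calb1 difference was 5.74 ± 0.887 points in FC and 5.67 ± 0.817 points in CS, and it passed in both. In tissue RNA, fewer cells of a type and less RNA per cell cannot be told apart.

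Calb2 had the larger shift in rank of these 2 buffers. In NH arrays it lay at 87.2, 88.8 and 89.9 in amygdala, against 75.8, 78.9 and 81.5 in hippocampus. The tissues were again apart in every array. The difference was 9.86 ± 0.678 points in NH (adjusted p = 2.85e-10), 12.5 ± 1.05 points in FC and 12.3 ± 1.10 points in CS, and limma called it in all 3 arms. As log2 intensity minus the array's median, the NH difference was 0.80 ± 0.0479, a fold of 1.74, and that of Calb1 was 0.91 ± 0.0684, a fold of 1.88. Over all 48 arrays the lowest amygdala value of Calb1 was percentile 91.7 and the highest hippocampus value 90.9. For Calb2 these were 86.4 and 81.5. Of all probe sets, 2.34% lay higher in every amygdala array in this way and 2.04% in every hippocampus array.

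Both Pvalb probe sets lay lower in amygdala on average in every arm, by very unequal amounts. The set 96719_i_at lay near the top of the array in both tissues. In NH arrays it was at 98.5, 98.7 and 98.9 in amygdala, against 98.5, 98.9 and 99.2 in hippocampus. These ranges overlapped over most of their length, and the difference of -0.23 ± 0.196 points did not pass (limma, adjusted p = 0.377; 95% interval -0.64 to 0.18). The differences of -0.43 points in FC and -0.37 points in CS did not pass either. With percentiles turned into normal scores, which spread the top of the scale, this set passed in all 3 arms as lower in amygdala, by 0.08 score units in NH (adjusted p = 0.0274).

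The other Pvalb set, 96720_f_at, was dim and lay below the intensity filter in both tissues. It was at 7.21, 9.55 and 10.9 in amygdala NH arrays, against 16.4, 19.4 and 22.7 in hippocampus NH arrays, with no overlap. The difference was -10.3 ± 0.716 points in NH (limma, adjusted p = 3.56e-10) and -10.8 points in FC and -10.6 points in CS. In Affymetrix naming an f marks a set whose probes match a family of sequences, and an i one with fewer probes than usual, so neither name promises a set specific to parvalbumin. Array by array, with batch and arm taken out, the 2 sets varied together in amygdala (r = 0.70, rho = 0.63, n = 21; permutation p = 0.00474 for r, 0.00948 after adjustment over both tissues) and r was 0.51 without the 2 arrays farthest from the median. In hippocampus r was 0.12 and rho 0.03 (n = 25; permutation p = 0.670 for r). The dim set thus passed by percentile in all 3 arms and the bright set on normal scores only, so the size of the tissue difference of Pvalb is uncertain.

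Hippocalcin had the largest tissue difference of the members on the log2 scale. Its NH percentiles were 91.9, 93.0 and 94.3 in amygdala, against 99.2, 99.4 and 99.5 in hippocampus. The lowest of 26 hippocampus arrays, at 99.2, stood above the highest of 22 amygdala arrays, at 94.9. The NH difference was -6.50 ± 0.272 points (limma, adjusted p = 1.06e-13), with -5.55 points in FC and -5.71 points in CS. Ranks near 100 leave little room, and on the log2 scale relative to the array median Hpca was 2.10 ± 0.0445 units below hippocampus in amygdala, a fold of 4.29. That placed Hpca 5 of 12422 in the order of probe sets that lean to hippocampus in NH arrays. Only Lct, Dsp, Nrp1 and Neurod6 leaned further, and all of these but Nrp1 stand on the list of hippocampal principal neuron markers, which was drawn up with earlier results of these data known. In FC and CS arrays its places were 9 and 8.

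**Figure D1:**
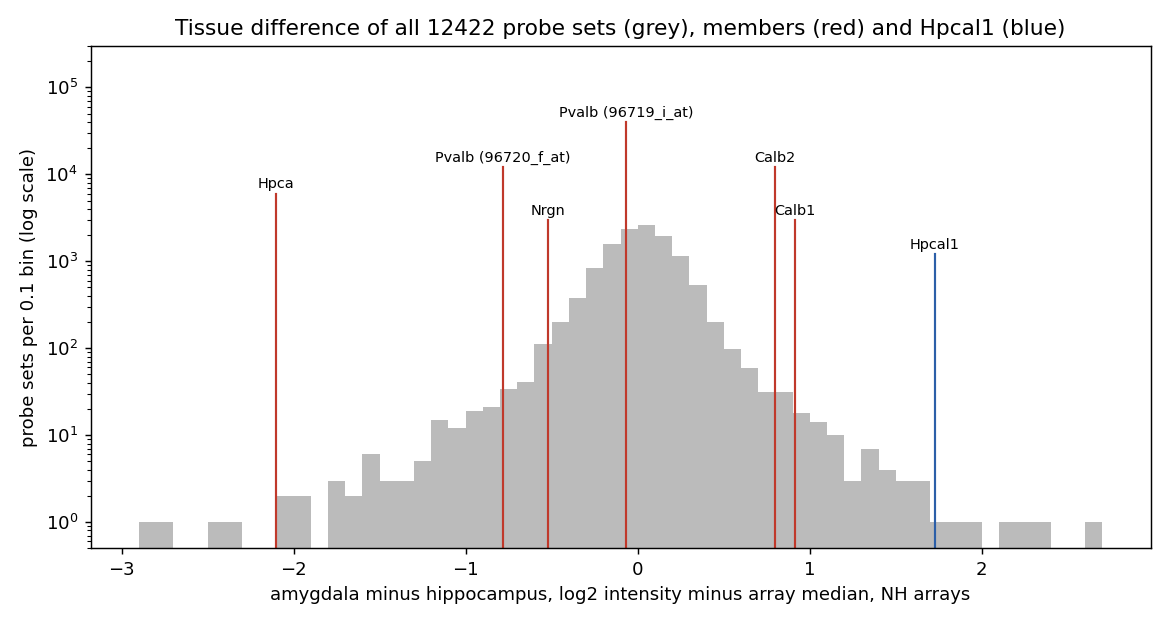
Histogram of the amygdala minus hippocampus difference of all 12422 probe sets in NH arrays (horizontal axis, log2 intensity minus the array median; vertical axis, probe sets per bin of 0.1 on a log scale), with red lines at the 6 member probe sets and a blue line at Hpcal1. Hpca stands at -2.10 in the sparse left tail, Calb1 and Calb2 at 0.91 and 0.80 on the right, and the Pvalb set 96719_i_at at -0.07 in the middle; line heights only separate the names.

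Neurogranin also lay higher in hippocampus in NH arrays, with overlap. Its percentiles were 91.6, 94.96 and 97.3 in amygdala, against 96.6, 97.2 and 98.4 in hippocampus. The difference of -2.44 ± 0.548 points passed (limma, adjusted p = 0.00124), and relative to the array median it was a fold of 1.43. It did not pass in FC (-0.999 ± 0.524 points, adjusted p = 0.147) or in CS (-1.60 ± 0.719 points, adjusted p = 0.1003). The percent of all probe sets that passed was 39.5% in FC and 35.4% in CS. Without batches 1 and 7, which held NH arrays alone, the NH difference was -1.61 points and no longer passed (adjusted p = 0.107). A joint fit asked whether the difference varied between arms, on log2 intensity and, as an alternative, on percentiles. Nrgn passed in none of its settings (limma, lowest adjusted p 0.464 for FC minus NH and 0.805 for CS minus NH).

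**Figure D2:**
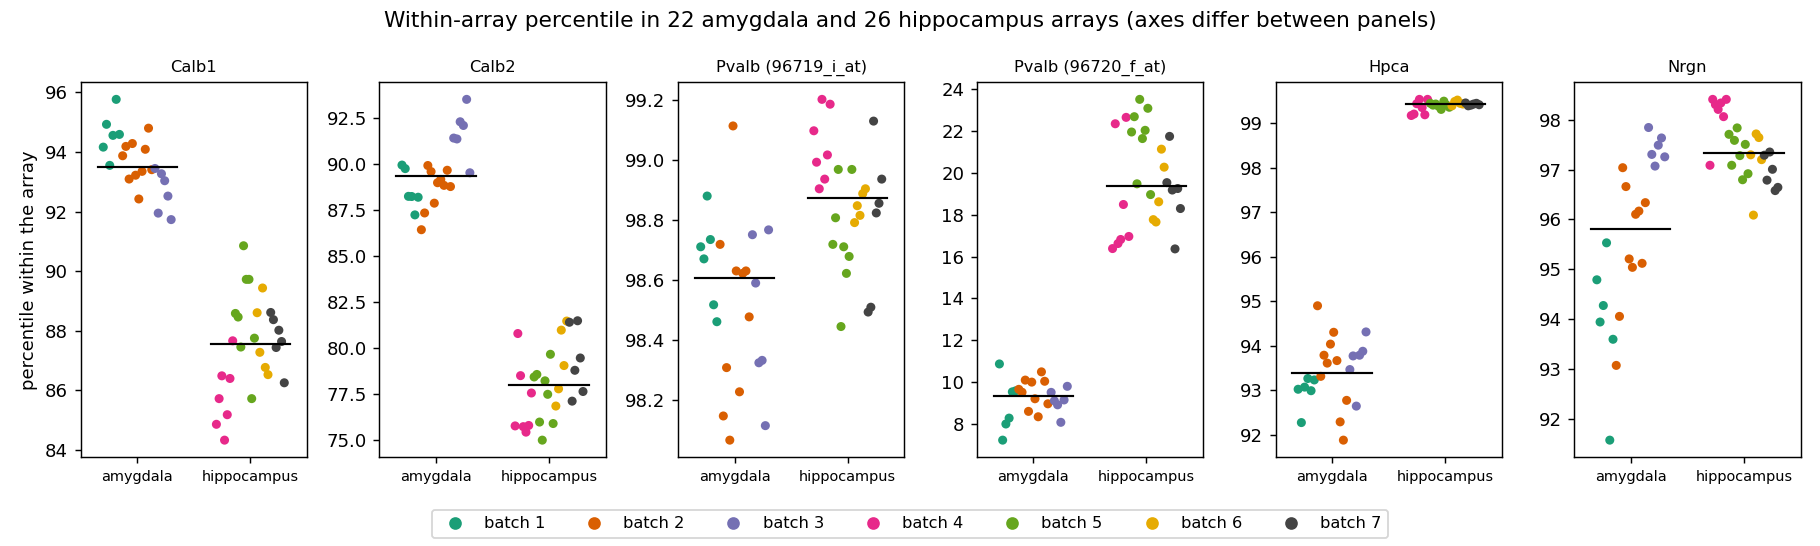
Percentile of each member probe set within its array (vertical axis, 0 to 100 scale cut to the data and different in each panel) for 22 amygdala and 26 hippocampus arrays, 1 point an array, coloured by batch, with a line at the median. Calb1 and Calb2 are higher in every amygdala array, Hpca and the dim Pvalb set 96720_f_at are higher in every hippocampus array, and Nrgn and Pvalb 96719_i_at overlap.

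Other EF-hand proteins did not lean one way. Of 28 further EF-hand buffers and sensors on the array, 7 lay higher in amygdala, 7 lower and 14 did not pass in NH arrays, and their median difference was 0.04 points, against 0.02 over all probe sets. The share that passed is near the 42.4% of all probe sets. Hpcal1, a visinin-like sensor of the same family as hippocalcin, ran opposite to Hpca. It lay at 98.4 ± 0.0828 in amygdala and 91.3 ± 0.595 in hippocampus (SD, n = 10 each), 1.73 log2 units higher relative to the array median (percentile test, adjusted p = 9.50e-15). Its probe set is of the f kind too, so its signal may include relatives of Hpcal1. Rcn1, a reticulocalbin of the secretory pathway, lay 26.9 points higher in amygdala, while the difference of Efhd1, a mitochondrial EF-hand protein, was -9.02 points. Of 10 calmodulin-binding and growth cone proteins listed beside neurogranin, 5 lay higher in amygdala, none lower and 5 did not pass, again a share near that of all probe sets. Gap43, which shares with neurogranin an IQ motif that binds calmodulin, lay at 97.6 ± 0.169 in amygdala and 92.4 ± 1.19 in hippocampus, the reverse of Nrgn.

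Marker lists of cell types differed between the tissues too, and their part in the member differences was not tested. The counts that follow stand beside the 42.4% of all probe sets that passed in NH arrays. Of 27 interneuron markers on the array, 19 lay higher in amygdala and 3 lower, with a median of 5.76 points. Tac1, Gad2, Tac2 and Reln had the largest differences, and Satb1 led the lower ones at -11.6 points. Gad2, an enzyme of GABA synthesis, lay at 52.9 ± 3.47 in amygdala and 31.6 ± 2.58 in hippocampus. Of 18 hippocampal principal neuron markers, 14 lay lower in amygdala and 1, Wfs1, higher, with a median of -10.8 points. The list of amygdala and piriform markers had more genes lower than higher in amygdala. Of its 13 on the array, 4 lay higher in amygdala and 8 lower, with a median of -3.95 points, from Cdh13, a cadherin, at 21.9 points to Nr4a2, also an immediate early gene, at -25.4 points. Of 10 striatal markers, 7 lay higher in amygdala, among them Penk at 98.8 ± 0.331 against 88.9 ± 1.58, and 1, Foxp1, lay lower, at -11.8 points. The striatal Drd2 and Rgs9 did not pass and lay at 39.4 and 11.7 in amygdala. Tac1, Penk and Pdyn stand on both the interneuron and the striatal list and are counted in each, and the Penk set is of the f kind. Of 9 oligodendrocyte markers, 6 lay lower in amygdala and 1 higher.

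Between arms, differences were taken within batches in log2 intensity, and 5 of the 6 member probe sets were above the filter and tested in each tissue. None of their 30 differences passed the limma test at an adjusted p of 0.05, and 28 of the 95% intervals included 0. In amygdala the share of all 7453 tested probe sets that passed was 0.0939% for FC minus NH, 0.0134% for CS minus NH and 0% for FC minus CS. In hippocampus it was 0.0134%, 0.0134% and 0% in the same order. A count of 0 of 30 is near those shares. An unadjusted p below 0.05 was reached by 2 of the 30, both of Hpca in amygdala. Of all 7453 probe sets, 384 reached it for FC minus NH in amygdala, 292 for CS minus NH and 92 for FC minus CS. In hippocampus 169, 108 and 57 did, in the same order. Every difference from NH rests on 4 NH arrays in each tissue, 3 in batch 2 and 1 in batch 3 of amygdala, and 2 each in batches 4 and 6 of hippocampus.

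In the fit with batch terms, each interval limits what could have been missed for its own probe set. Over the 5 tested sets the bound farthest from 0 of any interval was a fold of 1.26 for FC minus NH, 1.27 for CS minus NH and 1.28 for FC minus CS in amygdala. In hippocampus these were 1.28, 1.21 and 1.19. These bounds belonged to Nrgn, except that of amygdala FC minus NH, which belonged to Hpca. In that fit a larger change in the RNA of the whole dissected tissue lies outside each interval taken alone. A change in a small class of cells may lie within it. The bounds depend on the fit. Over the alternative settings the Nrgn difference in amygdala reached 0.39 log2 units for FC minus NH and 0.36 for CS minus NH, beyond these bounds.

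**Figure D3:**
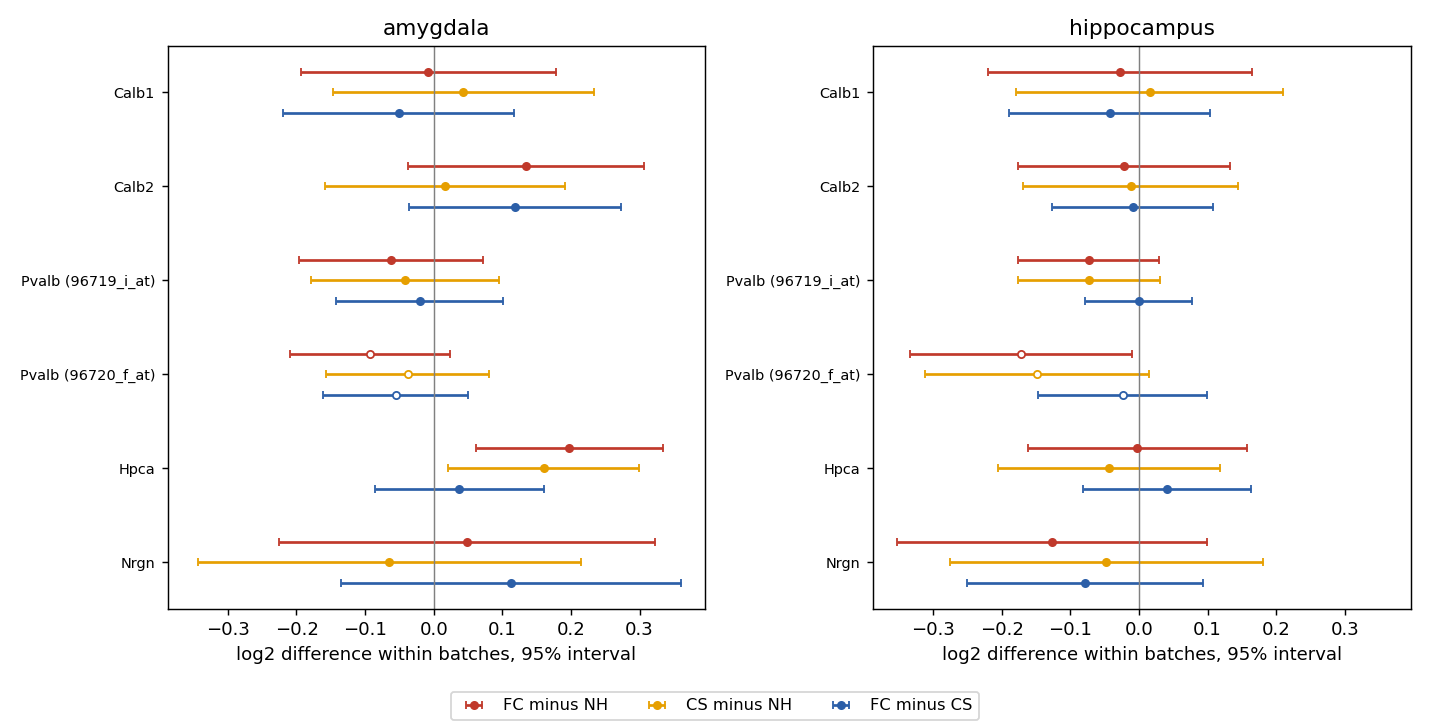
Log2 difference between arms within batches (points) with its 95% interval (bars) for each member probe set, amygdala left and hippocampus right; open points mark the Pvalb set below the filter. Of the tested sets, Hpca in amygdala for FC minus NH and CS minus NH alone has intervals clear of 0, and neither passes after adjustment.

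Hpca in amygdala was the member with the smallest p. Its log2 levels were 8.62, 8.69 and 8.73 (lowest, median and highest) in FC arrays and 8.48, 8.64 and 8.84 in CS arrays, against 8.37, 8.50 and 8.70 in NH arrays. All but 1 NH array lay below every FC array. Within batches the FC minus NH difference was 0.20 ± 0.0662 (SE; 95% interval 0.06 to 0.33), with an unadjusted limma p of 0.00643 that was 60 in order among 7453 and an adjusted p of 0.793. CS minus NH was 0.16 ± 0.0674 (0.02 to 0.30; limma, adjusted p = 0.942), and FC minus CS was 0.04 ± 0.0597.

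The batches did not give the same direction. In batch 2 Hpca averaged 8.69 in 4 FC and 8.74 in 3 CS arrays, against 8.42 in 3 NH arrays. In batch 3 it averaged 8.68 in 2 FC and 8.55 in 3 CS arrays, against 8.70 in the 1 NH array. The difference was therefore 0.27 for FC and 0.32 for CS in batch 2, and -0.02 and -0.16 in batch 3. With no batch term, which lets the 6 NH arrays of batch 1 count, FC minus NH was 0.20 and passed (limma, adjusted p = 0.0422), and then 211 probe sets passed in all. Batch 1 held NH arrays only, with Hpca from 8.37 to 8.55. Without the single NH array of batch 3 the difference within batches was 0.30 for FC minus NH (limma, adjusted p = 0.0590) and 0.28 for CS minus NH (adjusted p = 0.652), so 1 array moved both by over 1.5 times.

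Penk, the enkephalin precursor gene of striatal and central amygdala neurons, was chosen for its high correlation with Hpca in amygdala, after its values were seen. In batch 2 Penk averaged 10.38 in FC and 10.56 in CS, against 10.08 in NH, and in batch 3 it averaged 10.27 in FC and 10.17 in CS, against 10.30 in NH. Its differences of 0.23 ± 0.132 for FC minus NH and 0.27 ± 0.134 for CS minus NH did not pass (limma, adjusted p = 0.894 and 0.942). Centred within batches with arm means left in, the log2 levels of Hpca and Penk correlated at r = 0.82 over 22 amygdala arrays and at 0.24 over 26 hippocampus arrays. Differences between arms are therefore part of these values. Of 5 striatal markers compared in both tissues, Penk included, 2 correlated positively with Hpca in both and 2 negatively in both. Their median lower correlation was -0.12, against -0.05 over all probe sets. Of 6 striatal markers tested in amygdala, 3 were higher in FC than in NH and 4 were higher in CS than in NH. The summed intensity of the 9 on the array other than Penk ran from 847 to 906 in FC and 819 to 1031 in CS, against 796 to 908 in NH, so the arms overlapped, and the part of such cells in the Hpca values was not tested.

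**Figure D4:**
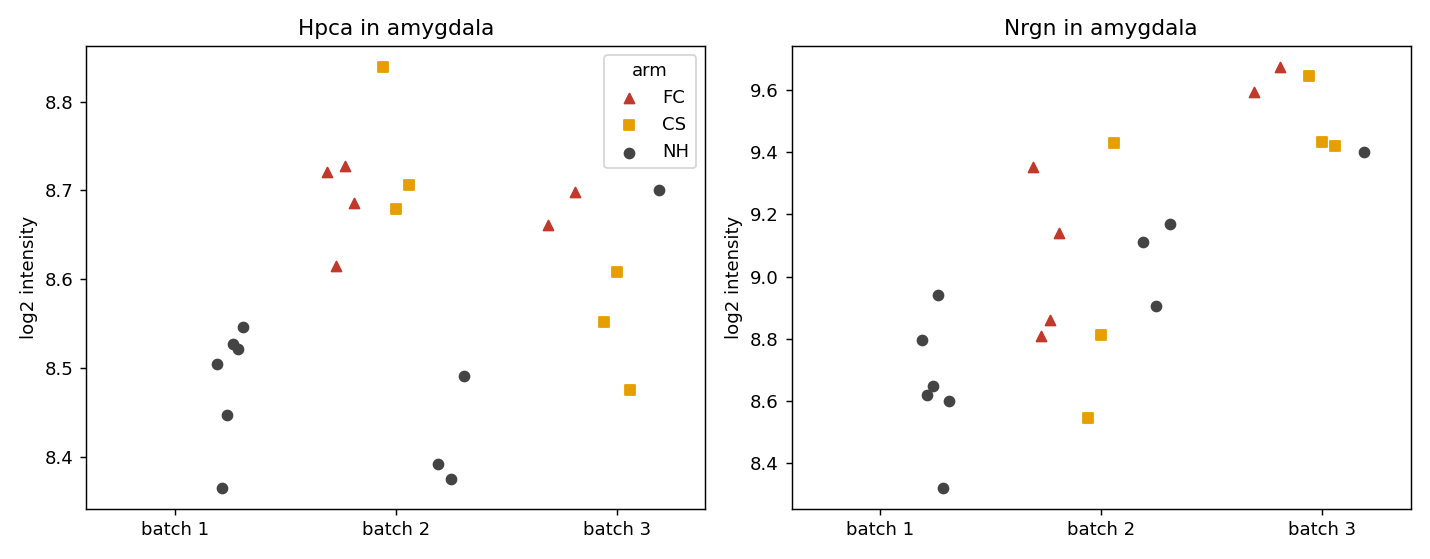
Log2 intensity of Hpca (left) and Nrgn (right) in each of the 22 amygdala arrays by batch (horizontal axis) and arm (symbols). Hpca averages lower in NH than in FC or CS in batch 2 but not in batch 3, which has a single NH array. Nrgn differs by batch in every arm, at a mean of 8.65 in batch 1, 9.01 in batch 2 and 9.53 in batch 3.

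Among the buffers in amygdala, Calb2 came next. Its log2 levels were 7.89, 8.12 and 8.64 in FC arrays and 7.78, 8.21 and 8.42 in CS arrays, against 7.85, 8.00 and 8.10 in NH arrays. The arms overlapped. Over the pooled batches, which hold the arms unequally, the FC and CS arrays spread more widely than the NH arrays. Calb2 averaged 7.96, 8.02 and 8.34 in amygdala batches 1, 2 and 3. The FC minus NH difference was 0.14 ± 0.0833 (limma, adjusted p = 0.894), from 0.01 in batch 2 and 0.47 in batch 3, where 1 NH array was the comparison, and it was 0.03 without that array. CS minus NH was 0.02 ± 0.0848 and FC minus CS 0.12 ± 0.0752. When arrays were weighted by their quality, Calb2 passed for FC minus NH at 0.23 (limma, adjusted p = 0.0283), as did Pvalb 96719_i_at at -0.15 (adjusted p = 0.0326), in a fit that passed 911 probe sets.

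For Calb1 and Pvalb 96719_i_at in amygdala the differences over both batches were small, and for FC minus NH the batches did not run the same way. Calb1 was at 8.44, 8.52 and 8.82 in FC and 8.33, 8.58 and 8.83 in CS, against 8.29, 8.73 and 9.06 in NH, so NH arrays reached both lower and higher than the others. Its differences were -0.01 ± 0.0902 for FC minus NH, 0.04 ± 0.0918 for CS minus NH and -0.05 ± 0.0814 for FC minus CS. FC minus NH was -0.10 in batch 2 and 0.24 in batch 3, against the single NH array there. Pvalb 96719_i_at was at 9.87, 9.96 and 10.28 in FC and 9.93, 10.03 and 10.16 in CS, against 9.99, 10.08 and 10.16 in NH. Its differences were -0.06 ± 0.0652, -0.04 ± 0.0664 and -0.02 ± 0.0589 in the same order, and FC minus NH was 0.01 in batch 2 and -0.24 in batch 3. CS minus NH of this set was negative in both, at -0.03 in batch 2 and -0.12 in batch 3. The dim set 96720_f_at, which was not tested, differed by -0.09, -0.04 and -0.06.

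Nrgn in amygdala was at 8.81, 9.25 and 9.68 in FC arrays and 8.54, 9.43 and 9.65 in CS arrays, against 8.32, 8.85 and 9.40 in NH arrays. The group means of 9.24 in FC and 9.21 in CS stood above the 8.85 of NH, and the 6 NH arrays of batch 1, which held no other arm, averaged 8.65. Within batches FC minus NH was 0.05 ± 0.133, CS minus NH -0.06 ± 0.135 and FC minus CS 0.11 ± 0.1198 (limma, adjusted p from 0.960 to 0.9995). FC minus NH was -0.02 in batch 2 and 0.23 in batch 3.

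**Figure D5:**
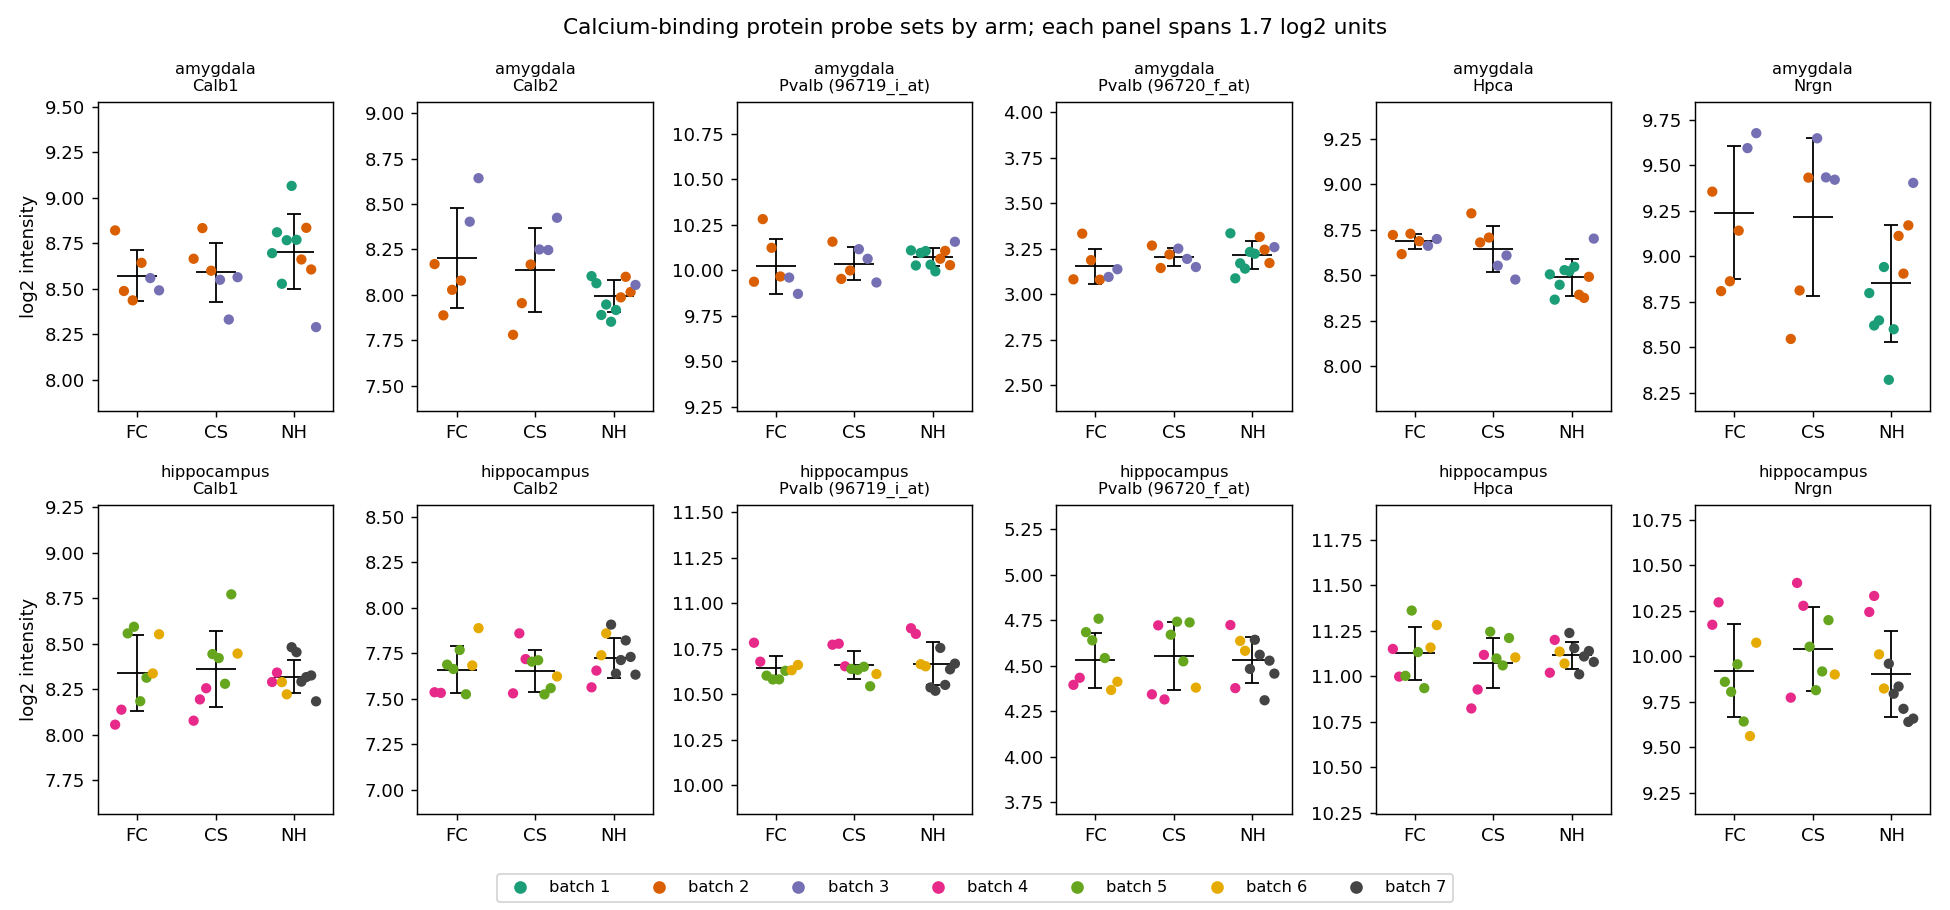
Log2 intensity of the 6 member probe sets in each array (points, coloured by batch) by arm, amygdala above and hippocampus below, with the mean and SD of each arm (bars); every panel spans 1.7 log2 units. Within each tissue the FC, CS and NH ranges overlap for all 6 sets, and Nrgn has the widest spread in amygdala.

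In hippocampus all 5 tested sets had a negative FC minus NH difference, none of which passed. Nrgn was at 9.56, 9.91 and 10.30 in FC and 9.77, 9.99 and 10.40 in CS, against 9.64, 9.83 and 10.33 in NH, and its differences were -0.13 ± 0.110 for FC minus NH and -0.05 ± 0.111 for CS minus NH. Pvalb 96719_i_at was at 10.58, 10.63 and 10.78 in FC and 10.54, 10.64 and 10.78 in CS, against 10.52, 10.66 and 10.86 in NH. Both of its differences from NH were -0.07, with SE of 0.0499 and 0.0505, and FC minus CS was -0.00 ± 0.0381. The ranges of the arms covered each other for both genes. The dim Pvalb set differed by -0.17 for FC minus NH (95% interval -0.33 to -0.01) and was not tested, being below the filter.

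Hpca held at 10.94, 11.14 and 11.36 in FC and 10.82, 11.10 and 11.25 in CS of hippocampus, against 11.01, 11.12 and 11.24 in NH. The NH arrays lay inside the range of the other arms, and the differences were -0.00 ± 0.0778 for FC minus NH and -0.04 ± 0.0787 for CS minus NH. Calb1 was at 8.05, 8.32 and 8.59 in FC and 8.08, 8.35 and 8.77 in CS, against 8.18, 8.30 and 8.48 in NH. Its FC minus NH difference was -0.22 in batch 4 and 0.19 in batch 6, from 2 FC and 2 NH arrays in each, and -0.03 ± 0.0935 over both. Calb2 was at 7.53, 7.67 and 7.89 in FC and 7.52, 7.66 and 7.86 in CS, against 7.56, 7.72 and 7.91 in NH. Its differences were -0.02 ± 0.0753 and -0.01 ± 0.0762.

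By mean percentile the 3 arms of a tissue stood next to each other for all 6 member probe sets. Calb2 averaged 90.2 in amygdala FC, 89.8 in amygdala CS and 88.8 in amygdala NH, followed by 77.6 in hippocampus FC, 77.5 in hippocampus CS and 79.0 in hippocampus NH, the highest of the hippocampus groups. Neighbours within a tissue differed by no more than the larger of their SDs over arrays, and the step between the tissues was larger than any of these SDs. The same held for Calb1, Hpca and the dim Pvalb set. For Nrgn the step between amygdala FC, at 96.4 ± 1.11, and hippocampus NH, at 97.3 ± 0.599, was within the SD over amygdala FC arrays.

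The wider families gave no call either. Of 22 EF-hand genes tested in each comparison, 0 passed in any of the 6 (limma; 1 had an unadjusted p below 0.05 in amygdala FC minus NH and CS minus NH and in hippocampus FC minus NH), and their median difference in amygdala was -0.01 for both FC minus NH and CS minus NH, against 0.01 over all tested probe sets in both. The smallest unadjusted p for FC minus NH belonged to Ppp3r1, the regulatory subunit of calcineurin, in amygdala (0.13 ± 0.0577, p = 0.0333) and to Guca1a, a guanylate cyclase activator, in hippocampus (0.21 ± 0.0800, p = 0.0133), both far from passing in limma. Of the 9 calmodulin-binding proteins tested 0 passed, and of interneuron markers 0 of 21 passed in amygdala and 0 of 17 in hippocampus. Sst, the somatostatin gene, had the smallest p of the interneuron markers in amygdala FC minus NH (0.15 ± 0.0569; limma, adjusted p = 0.894).

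The tissues were also set against each other in their arm differences. Of 15 member tests of amygdala difference minus hippocampus difference, 0 passed in limma, 0 had an unadjusted p below 0.05, and all 15 intervals included 0. Of all 7664 probe sets tested, 0% passed in any of the 3. Hpca came closest, at 0.20 ± 0.103 for FC minus NH (adjusted p = 0.986) and 0.20 ± 0.105 for CS minus NH (adjusted p = 0.999). A call for an arm difference in 1 tissue and not in the other would thus not have been shown to differ for any member.

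Members differed in how much they varied from array to array within an arm and batch. Nrgn had a residual SD of 0.235 log2 units in amygdala, above that of 98.6% of tested probe sets, and 0.180 in hippocampus, above 89.4%. Pvalb 96719_i_at had 0.0607 in hippocampus, above 1.73% only, and 0.1002 in amygdala, near the middle. Calb1 had 0.152 in amygdala and 0.1495 in hippocampus, above 85.6% and 78.5%. Nrgn also differed between batches. Its amygdala mean was 8.65 in batch 1, 9.01 in batch 2 and 9.53 in batch 3, and the lowest array of batch 3, at 9.40, stood above all but 1 array of the other batches. In hippocampus it was highest in batch 4, at 10.21, and 9.77 to 9.91 in the others. Calb1 ran the other way over the amygdala batches, at 8.77, 8.66 and 8.46.

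Whether members varied together was asked after batch and arm means were taken out, in 10 pairs a tissue, with 21 amygdala and 25 hippocampus arrays that had another array of their arm and batch. None of the 20 correlations passed after adjustment (permutation test, smallest adjusted p 0.102 for r and 0.0562 for rho). The strongest in amygdala were Calb2 with Nrgn (r = 0.65, rho = 0.52, permutation p = 0.0215 for r, adjusted 0.102) and Calb2 with Pvalb (r = -0.59, rho = -0.52, permutation p = 0.0254, adjusted 0.102). Without the 2 arrays farthest from the median of Calb2 they were 0.43 and -0.54. In hippocampus Calb1 ran against Pvalb (r = -0.51, rho = -0.60, permutation p = 0.00746 for r, adjusted 0.102) and Calb2 with Nrgn again (r = 0.61, rho = 0.53, permutation p = 0.0333, adjusted 0.111). With batch alone taken out, both amygdala pairs passed, at r of 0.63 for Calb2 with Nrgn (permutation, adjusted p = 0.0076) and -0.67 for Calb2 with Pvalb (permutation, adjusted p = 0.0218). With probe sets averaged by gene instead, neither passed (permutation, adjusted p = 0.182 for both). Over these 2 alternatives hippocampus Calb1 with Pvalb fell to r between -0.27 and -0.05 (permutation, adjusted p from 0.320 to 0.825). Hippocampus Calb2 with Nrgn lay between 0.41 and 0.61 and did not pass.

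The genes most like each member were ranked by the lower of 2 correlations of log2 intensity centred within batches, 1 over 22 amygdala and 1 over 26 hippocampus arrays, among 6506 probe sets. Arrays share their quality and normalization, so such values describe these arrays only. Nrgn was most like Palm, a membrane-anchored paralemmin (r = 0.83 in amygdala and 0.82 in hippocampus), Grina, a glutamate receptor-associated membrane protein (0.83 and 0.81), and Pcsk1n, an inhibitor of a prohormone convertase (0.80 and 0.83). Hpca was most like the neuronal chemokine gene Cx3cl1 (0.61 and 0.61), Fkbp8 (0.61 and 0.61) and Rab4b (0.61 and 0.60). Calb1 was most like Sptan1, the brain spectrin chain (0.74 and 0.84), Pum2 (0.76 and 0.74) and Zhx1 (0.78 and 0.72). Calb2 was most like Ubtf, Ccnd1 and Extl3, with lower correlations of 0.68, 0.63 and 0.60. For Calb1, 8.62% of probe sets exceeded a lower correlation of 0.5, against 0.40% for Calb2.

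Pvalb 96719_i_at was most like Gtf2ird2 (0.83 in amygdala and 0.74 in hippocampus), Utp18 (0.74 and 0.73) and Sec23b, read by an f set (0.70 and 0.71), none of which is on the interneuron marker list. Its best placed interneuron marker was Cort, the cortistatin gene, at place 825, and of 17 such markers 3 correlated positively with it in both tissues and 8 negatively in both, against 36.2% and 43.3% of all probe sets compared. Cib1, a calcium and integrin binding EF-hand protein, was at place 13. For Calb1 the best placed interneuron marker was the vesicular GABA transporter gene Slc32a1, at place 626, and of 17 such markers 10 were positive and 4 negative in both tissues, against 48.2% and 36.9% of all. For Nrgn, of 10 hippocampal principal neuron markers 8 were positive and 0 negative in both tissues, against 37.6% and 26.5% of all, led by Cpne6, a copine, at place 152.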

How the data were processed

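The authors deposited a linear intensity for each probe set in each array. The submitters' processing notes name RMA, which combines the probes of a set into 1 value after making array distributions alike. Its version is not given in the sources used here. A shift of most transcripts at once is lost in such values. Of 12488 probe sets, 66 controls were left out. The platform annotation gave 1 gene for 10833 of the rest, several for 396 and none for 1193, and unnamed or several-gene sets are not named here.

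The log2 of intensity was fitted for each tissue with limma 3.58.1 in R 4.3.3 (lmFit, eBayes), with arm and batch as fixed terms, on 7453 probe sets after the lowest 40% by mean were left out. Tissues were compared by within-array percentile with limma on all 12422 probe sets, arm by arm, and a joint fit of 48 arrays tested tissue differences of arm differences; both take the arrays of the tissues as independent. Tests were two-sided, with Benjamini-Hochberg adjustment over all probe sets tested and a threshold of 0.05. Correlations of members were tested with 100000 permutations within batch and arm (numpy 2.4.6, scipy 1.17.1). The number of arrays limits the precision.

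For a gene on a list with several probe sets the brightest was used. All member probe sets are named, with the 3 genes most like each but the dim Pvalb set, which was not compared. From each list the genes with the smallest p or, between tissues, the largest differences are named. Penk and Gap43 fall under these rules, and their batch values or pairing with members were chosen after their values were seen. The members, the gene lists and the tests were chosen with earlier results of these data known. Alternatives covered filters, the batch term, array weights, normalization, probe set averaging, single batches, ranks and leaving out each array. The fits were tested on simulated data.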

Additional observations from a re-analysis of the deposited data

How the results depend on the processing

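Of 1019 recomputed member differences between arms, 3 passed and 93 had another sign than reported; leaving out each array in turn gave 720 refits in which 0 passed. Those refits put Hpca in amygdala between 0.16 and 0.30 for FC minus NH and between 0.11 and 0.28 for CS minus NH, and Calb2 between 0.03 and 0.18 for FC minus NH. The highest Hpca values and the lowest Calb2 value came without the single NH array of batch 3. The 3 were Hpca in amygdala FC minus NH with no batch term (0.20), and with array weights Calb2 (0.23) and Pvalb 96719_i_at (-0.15), so 1 and 2 member probe sets passed there. The members that differed between tissues by percentile kept their direction in every setting.

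Counts over all probe sets moved as follows. For amygdala CS minus NH they were 0 with the lowest 60% left out or probe sets averaged by gene, 17 with no batch term, 4 with batch as a random block and 5 with array weights, and 1 to 3 with an array left out. For amygdala FC minus NH they were 211 with no batch term, 911 with array weights, 2 in batch 2 alone and 1 in batch 3 alone, and 4 to 9 with an array left out; FC minus CS gave 1 in batch 3 alone. For hippocampus CS minus NH they were 0 with the lowest 60% left out, with the 2 arms alone or averaged by gene, 7 with no batch term and 7 in batch 6, and 0 to 1 with an array left out. For hippocampus FC minus NH they were 0 with the lowest 60% left out, averaged by gene or in batch 4, 7 with no batch term, 4 with a random block, 3 with array weights, 4 in batch 6, and 1 to 2 with an array left out; FC minus CS gave 38 in batch 6. The cause was not tested.

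Between tissues, ranks among probe sets above the filter gave 3106 calls in NH, 2468 in CS and 2890 in FC, where fewer were tested, and NH arrays without batches 1 and 7 gave 2580. With an array left out the calls ran from 5027 to 5337 in NH, 3776 to 4604 in CS and 4384 to 5321 in FC. On normal scores Pvalb 96719_i_at passed in NH, CS and FC, at -0.08, -0.11 and -0.12, and Nrgn in CS, at -0.20 (limma, adjusted p = 0.0474). With no batch term the spread of Nrgn in amygdala was 0.365 and of Pvalb in hippocampus 0.0934. With only batch removed, 2 member pairs passed. The arms of a tissue share no replicate number, so their differences could not be paired. Chosen after seeing the data, a fit with a replicate block set each of the 8 amygdala arrays whose 2 title numbers both title hippocampus arrays against the mean of those 2 (3 FC, 2 CS and 3 NH sets). It gave 2361 calls in NH, 1985 in CS and 3111 in FC, from fewer arrays, and changed 1 member call, Nrgn in CS, at -3.98 points (limma, adjusted p = 0.00909). Deviations of such sets from their group and batch means correlated at r from -0.55 to 0.45 and above 0.1 in 5 of 8. Most sets together make up the means that were taken out, so these values cannot decide whether the numbers pair the arrays. The main fits left the arrays unpaired. The matched NH sets lie in batches 1 and 7 alone, so the joint fit could not be paired within batches.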
